A study of Mus musculus with 12 samples.

Results

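The genes described here encode proteins that sense, degrade, bind or reduce retinoids: the nuclear receptors Rara, Rarb and Rarg, the retinoic acid hydroxylases Cyp26a1, Cyp26b1 and Cyp26c1, the cellular binding proteins Crabp1 and Crabp2, and the retinaldehyde reductase Dhrs3. They were chosen by name as 9 of the 21911 protein-coding genes of the GENCODE M21 annotation (mm10) on chromosomes 1 to 19, X and Y. Around each gene, accessible domains were collected at every annotated transcription start site (TSS) ± 1 kb, over the gene body and over 50 kb on either side. Because Cyp26a1 and Cyp26c1 are neighbours, their windows were merged, which left 8 loci of 1.34 Mb in all.

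Chromatin accessibility was measured by ATAC-seq, in which a transposase cuts open DNA, in mouse embryonic stem cells differentiating into spinal motor neurons. The 12 samples fall into 6 groups of 2, and each group is represented by 1 list of accessible domains built from both of its samples. Embryoid bodies (EB) of the Ainv15(iCre) line received neither patterning signal, whereas progenitors of the same line had been exposed for 2 days to 1 μM retinoic acid (RA) and 0.5 μM of the Hedgehog pathway agonist SAG. All 4 remaining groups had received RA and SAG for 4 days.

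The no Dox control was the Ainv15(iFlag.Hoxc6) line without doxycycline. The iHoxc6, iHoxc9 and iHoxc10 neurons came from the Ainv15(iFlag.Hoxc6), Ainv15(iFlag.Hoxc9) and Ainv15(iFlag.Hoxc10) lines and had received 3 μg/ml doxycycline for 48 h from day 2. In these lines a single Flag-tagged Hox cDNA is driven by doxycycline from the HPRT locus. Only iHoxc6 has a control of its own line, and for iHoxc9 and iHoxc10 the line and the induced factor cannot be told apart. RA and SAG were given together, and neither was given alone, so their effects and that of time in culture cannot be told apart either. EB and progenitors are of another line than no Dox. Each comparison of EB or progenitors with no Dox therefore also changes the line.

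Retinoic acid is made from vitamin A and enters the nucleus, where it binds RAR receptors paired with RXR receptors on DNA. The pair commonly sits on direct repeats of a short hexamer, and ligand binding exchanges corepressors for coactivators. In differentiating stem cells and in the neural tube the pathway patterns the hindbrain and spinal cord, and several of its own components are among its textbook targets, including Rarb, Cyp26a1 and Dhrs3.

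The elements examined most closely at these genes were direct repeats with 5 bp between the hexamers (DR5). Hexamers were spelled AGGTCA or AGTTCA, with the variants that start with G in place of A (GGGTCA and GGTTCA), both strands were searched, and matches were allowed to overlap other motifs. Of 13 DR5 matches in the 8 loci, out of 9284 in the genome, 4 lay wholly inside a domain of at least 1 list, and these are shown 5′ to 3′ on the strand of the repeat, with 6 flanking bases on either side and the hexamers in capitals. The Rara match lies in an intron, at −404 bp from the Rara-202 start (chr11:98960002-98960030, plus strand). The Rarb match starts 14 bp into the Rarb-201 transcript, in its 5′ UTR as GENCODE draws it and at −53 to −37 from the RefSeq start (chr14:16575507-16575535, minus strand). The distal Cyp26a1 match lies at −1.89 kb from the start (chr19:37695903-37695931, plus strand), and the proximal Cyp26a1 match at −22 bp (chr19:37697770-37697798, minus strand). All coordinates are mm10.
Rara intronic DR5: caggcgAGTTCAgcaagAGTTCAgccgaa
Rarb start DR5: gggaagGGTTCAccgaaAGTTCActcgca
Cyp26a1 distal DR5: ctgcagGGGTCAcaggcGGGTCAggctaa
Cyp26a1 proximal DR5: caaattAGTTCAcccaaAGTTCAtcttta

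Both receptor matches shown were inside domains of all lists and both hydroxylase matches of some; the 5 other matches at receptor loci, 3 of them at Rarg, were in no domain. The Rara site was inside a domain in all 6 lists, of 1427 bp in EB, 1362 bp in progenitors, 1956 bp in no Dox, 1325 bp in iHoxc6, 1217 bp in iHoxc9 and 1023 bp in iHoxc10. The Rarb site was also inside a domain in all 6 lists, of 542 bp in EB, 961 bp in progenitors, 1241 bp in no Dox, 1148 bp in iHoxc6, 1309 bp in iHoxc9 and 1141 bp in iHoxc10. Both receptor sites were therefore already open in EB, the Rarb one within the narrowest of its domains.

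The proximal Cyp26a1 site was inside a domain of 854 bp in progenitors and 510 bp in no Dox, and in no domain of EB, iHoxc6, iHoxc9 or iHoxc10. The distal Cyp26a1 site was inside a domain of 114 bp in EB, 244 bp in progenitors and 207 bp in iHoxc6, and in none of no Dox, iHoxc9 or iHoxc10. Within 100 bp of a domain, the proximal site was also listed in iHoxc6 (3 lists in all) and the distal site in no Dox (4 lists in all). For the Cyp26a1 start, the 240 bp upstream are shown because most of this stretch became covered between EB and progenitors; the hexamers of the proximal repeat, which is on the minus strand, appear in capitals as their reverse complement (chr19:37697558-37697797, plus strand).
Cyp26a1 upstream: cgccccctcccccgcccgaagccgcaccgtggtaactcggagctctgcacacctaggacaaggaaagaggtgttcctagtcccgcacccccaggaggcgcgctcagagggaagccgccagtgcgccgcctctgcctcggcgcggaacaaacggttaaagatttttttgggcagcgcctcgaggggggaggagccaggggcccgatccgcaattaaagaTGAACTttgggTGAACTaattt

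**Figure D1:**
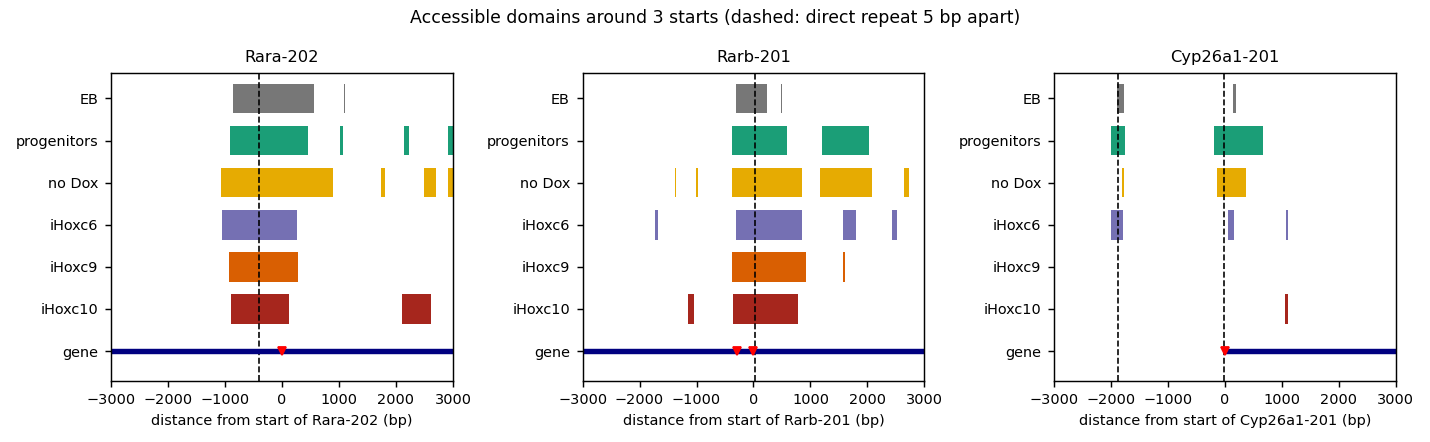
Accessible domains (coloured bars, 1 row per list) within 3 kb of the starts of Rara-202, Rarb-201 and Cyp26a1-201, plotted by distance from the start in bp along the gene's strand; dashed lines mark DR5 matches, red triangles annotated starts and the navy bar the gene. The Rara and Rarb matches sit in domains of all 6 lists, whereas the proximal Cyp26a1 match sits in domains of progenitors (854 bp) and no Dox (510 bp).

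DR5 matches inside domains were rare in every list, and least frequent in EB. In EB 90 of 94875 domains held one (0.0949%, Wilson 95% interval 0.0772 to 0.117), against 289 of 87916 in progenitors (0.329%, 0.293 to 0.369). The share was 0.285% in no Dox, 0.254% with iHoxc6, 0.168% with iHoxc9 (0.139 to 0.204) and 0.343% with iHoxc10 (0.298 to 0.395). Per Mb under domains, the matches numbered 3.95 in EB, 11.3 in progenitors, 8.64 in no Dox, 9.45 with iHoxc6, 6.02 with iHoxc9 and 9.64 with iHoxc10, so EB was lowest on this scale too. Among the domains of the 8 loci, 3 of 108 held a match in EB, 4 of 129 in progenitors, 3 of 133 in no Dox, 3 of 141 with iHoxc6, 2 of 80 with iHoxc9 and 2 of 92 with iHoxc10. Intervals here cover only the counting of domains, since 1 list per group gives no replicate error and no test.

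**Figure D2:**
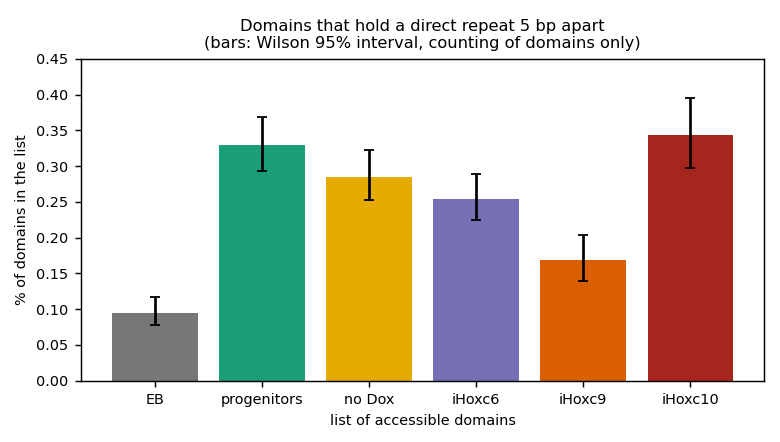
Share of each list's domains, in percent, that hold a DR5 match wholly inside them; error bars are Wilson 95% intervals and cover the counting of domains only. EB is lowest at 0.0949%, iHoxc9 lies between EB and the rest at 0.168%, and progenitors, no Dox, iHoxc6 and iHoxc10 lie between 0.254% and 0.343%.

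Domains that overlapped by at least 1 bp across lists were joined into regions, and a region was called gained or lost when the second of 2 lists held a domain in it and the first did not, or the reverse. Over all gene loci, 297 regions of EB or progenitors held a DR5 match, of which 154 (51.9%, interval 46.2 to 57.5) were gained and 26 (8.75%, 6.04 to 12.5) were lost from EB to progenitors. Of all 107991 regions, 31.1% were gained and 37.3% were lost. A match could lie anywhere in a joined region, so not always inside the EB or progenitor domain itself. The 2 sets of regions were not matched for width. Promoter matches were also rare. In RefSeq promoters (250 bp before to 50 bp after each start, GRCm38), 32 of 32851 (0.0974%) held a DR5 match. The 8 genes with RefSeq promoter entries had 14 promoters, and 2 of them, those of Rarb and Cyp26a1, held one.

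Repeats with other spacings were searched in the same way. Of 18 matches with 2 bp between the hexamers (DR2) in the 8 loci, 0 were inside a domain in any list. Of 10 matches with 1 bp between the hexamers (DR1), 1 was, at −4.93 kb from the Crabp1 start, where its domain measured 411 bp in progenitors, 319 bp in no Dox, 303 bp in iHoxc6 and 191 bp in iHoxc10 and no domain was listed in EB or iHoxc9. This repeat and a DR2 at −1.14 kb from the Crabp2 start are shown for comparison (chr9:54759811-54759835, minus strand, and chr3:87947519-87947544, plus strand). The DR2 was outside the domains of all 6 lists but within 100 bp of a domain in 4 of them.
Crabp1 upstream DR1: gaatggGGGTCAgAGTTCAgtcccc
Crabp2 upstream DR2: gtccccAGTTCAccAGGTCAgggctg

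The lists differed in length and in the width of their domains, and sequencing depth is unknown because they hold no counts. They held 56232 to 94875 domains and covered 17.8 to 29.7 Mb, least in iHoxc9 and most in no Dox, and 15.7% to 36.5% of domains were narrower than 50 bp. Markers matched the labels in part: 5 of 5 pluripotency genes had a TSS domain in EB and 2 or 3 in the other lists, with Pou5f1 and Nanog listed in EB only, whereas TSS coverage of Klf4 was 39.7% in EB and 59.6% in progenitors. The neural progenitor markers (5 of 5) had a TSS domain in every list, and the motor neuron and neuron markers (5 of 5) in every list but iHoxc9 (4), so neither group told the neural lists from EB by presence. By TSS coverage, each neural progenitor marker rose from EB to progenitors. Olig2 went from 11.6% to 48.9%, Nkx6-1 from 57.9% to 68.4% and Pax6 from 14.5% to 30.1%. Sox1 went from 37.6% to 69.2% and Irx3 from 55.8% to 77.2%. The neuron markers were mixed from EB to no Dox. Mnx1 (48.2% to 76.8%) and Tubb3 (40.3% to 68.7%) rose, while Isl1 (46.6% to 44.6%), Lhx3 (12.4% to 6.22%) and Chat (19.5% to 11.1%) fell. Of 4 markers of other lineages, 4 had a TSS domain in EB and progenitors and 3 in each day 4 list. From EB to no Dox, TSS coverage rose at Foxa1 (55.1% to 89.5%) and Gata6 (13.5% to 26.5%). It fell at Sox17 (34.6% to 22.1%) and T (34% to 0). In cell populations, fewer cells with an open site and less opening per cell cannot be told apart.

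Over the 8 loci together, covered sequence was lowest in iHoxc9 and highest in no Dox. It came to 30240 bp in EB, 44276 bp in progenitors, 50787 bp in no Dox, 39313 bp in iHoxc6, 24270 bp in iHoxc9 and 36670 bp in iHoxc10. As a share of the loci this was 2.25%, 3.29%, 3.78%, 2.92%, 1.8% and 2.73% in the same order, beside medians over all gene loci of 1.58%, 1.65%, 1.88%, 1.56%, 1.13% and 1.28%. The domains numbered 108 in EB, 129 in progenitors, 133 in no Dox, 141 with iHoxc6, 80 with iHoxc9 and 92 with iHoxc10. Taken as 1 stretch, the loci were above the median locus in all 6 lists, but not each of them was: Rarb was below it in every list, at 0.347% in EB and 1.45% in no Dox, as were Cyp26a1/Cyp26c1 outside progenitors (0.533% to 1.13%), Crabp1 in EB (0.98%), Cyp26b1 in iHoxc9 (0.962%) and Dhrs3 in iHoxc10 (1.11%).

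From EB to progenitors 6 of the 8 loci had a fold above the median of all gene loci, and Rarg (0.793) and Dhrs3 (0.979) were below it. Folds were computed as covered bp plus 100 in the second list over covered bp plus 100 in the first. From EB to progenitors 5 of 8 loci had at least 1.5-fold more covered bp and 0 had at least 1.5-fold less, against 11.7% and 12.7% of all gene loci; the median fold was 1.72 for the members and 1.04 for all loci. From EB to no Dox, 4 of 8 were past 1.5-fold up and 0 down, against 22.3% and 11.8%. From progenitors to no Dox, 1 was up and 1 was down, against 11.1% and 5.34%.

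In the 3 induced lists covered sequence was lower than in no Dox at all 8 loci, as it was over the genome. All 3 comparisons rest on the no Dox list, which covered the most sequence (29.7 Mb). That list also has 1 value throughout in each of its further columns. How much of the difference comes from the no Dox list itself was not tested. From no Dox, the median fold of all gene loci was 0.844 with iHoxc6, 0.637 with iHoxc9 and 0.724 with iHoxc10 (−0.25, −0.65 and −0.47 on the log2 scale), and the members' medians were 0.781, 0.499 and 0.743. In iHoxc6 0 of 8 loci were past 1.5-fold up and 2 were past it down, against 2.96% and 12% of all loci. In iHoxc9 0 were up and 5 down, against 1.64% and 55.9%, a background in which the members do not stand out. In iHoxc10 0 were up and 2 down, against 1.15% and 36.3%. After covered bp were divided by the total of each list, Dhrs3 stayed below 1 in all 3 induced lists, with scaled folds of 0.645, 0.593 and 0.485, whereas each of the 7 other loci had a scaled fold above 1 in at least 1 of them.

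**Figure D3:**
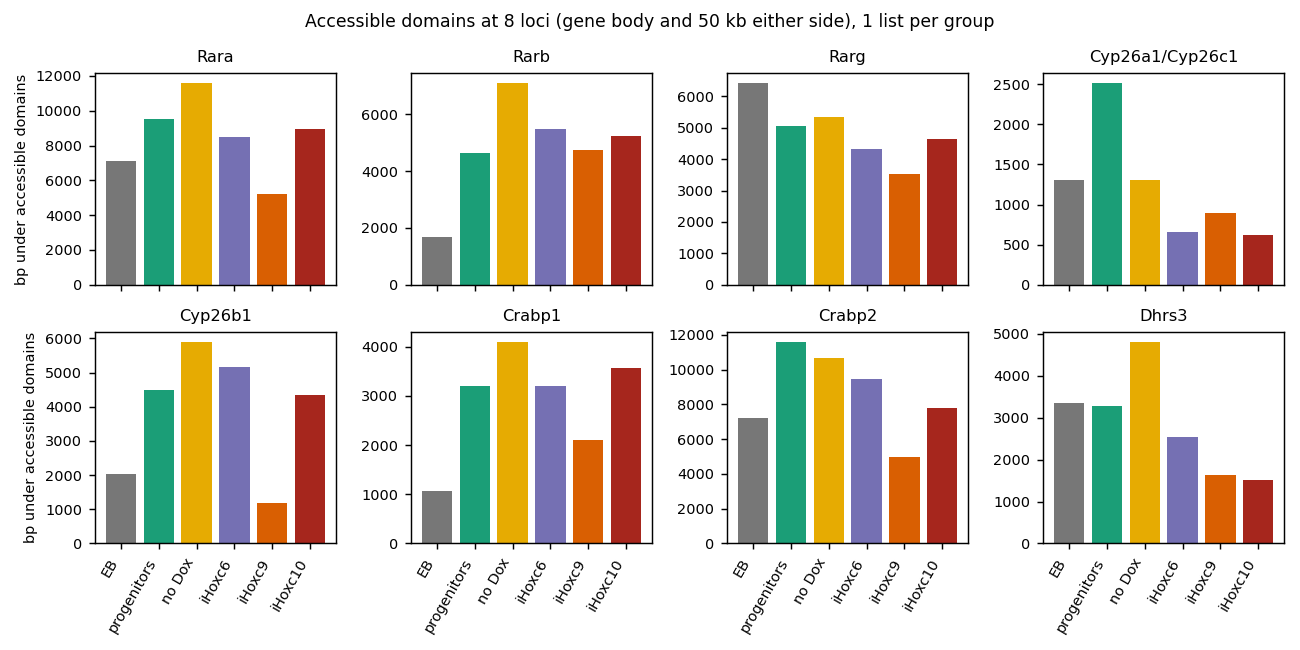
Sequence under accessible domains (bp, axis from 0, a separate scale for each locus) in the gene body and 50 kb either side of the 8 loci, 1 bar per list and no error, as each group has 1 list. Rarb, Cyp26b1 and Crabp1 are lowest or near lowest in EB, Rarg is highest in EB at 6418 bp, and Cyp26a1/Cyp26c1 is highest in progenitors at 2512 bp.

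The loci were also compared region by region. The 8 loci held 280 regions, of which 160 (57.1%) were in 1 list and 34 (12.1%) in all 6, beside 61.9% and 13.3% of the regions of all gene loci. Regions of 1 list were narrow, with a median widest domain of 45 bp, against 797 bp for those in all 6. From EB to progenitors 69 of 172 regions (40.1%, interval 33.1 to 47.6) were gained and 48 (27.9%, 21.7 to 35) were lost, against 31.1% and 37.3% of all regions. By place, 39 of the gained regions were in flanks, 24 in gene bodies, 5 at member starts and 1 at the start of another gene, and those lost were 22, 12, 10 and 4 in the same order.

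From EB to no Dox 76 of 179 regions were gained and 51 lost, or 42.5% and 28.5%, against 33.6% and 37.9% of all regions. From progenitors to no Dox 53 of 177 were gained and 49 lost (29.9% and 27.7%), close to the 30.1% and 28.2% of all regions. From no Dox to iHoxc6 the counts were 49 and 45 of 177 (27.7% and 25.4%), against 26.6% and 27.8%. From no Dox to iHoxc9 they were 13 and 69 of 141 (9.22% and 48.9%), against 14.6% and 43%, and from no Dox to iHoxc10 19 and 57 of 147 (12.9% and 38.8%), against 11% and 44.4%. In lists of equal length, made of the widest domains, the balance to iHoxc10 turned to 23 gained and 20 lost, and the small excess of gains to iHoxc6 turned to 18 gained and 20 lost. This setting keeps iHoxc10, the shortest list, whole and removes the narrower domains of no Dox, so it favours gains to iHoxc10 by construction. No share over all gene loci is given for these lists, so the turn cannot be read as a trait of the members. With the full lists, in each comparison that started from progenitors or no Dox, the members' interval contained the share of all regions.

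Of the 69 regions gained in progenitors, 30 (43.5%, interval 32.4 to 55.2) were also in no Dox, against 34.6% over all gene loci. In iHoxc10 24 of them were listed (34.8%, 24.6 to 46.6), against 20.9% over all loci. In iHoxc6 24 (34.8%) and in iHoxc9 13 (18.8%) were listed, beside 32.6% and 18.8% over all loci. All 4 day 4 lists held 11 of them (15.9%), against 12.5% over all loci. A further 36 of the 69 (52.2%) were in progenitors and no other list, against 57.5% over all loci.

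Wide domains were counted both ways. Of the 35 progenitor domains of at least 500 bp in the loci, 9 (25.7%, interval 14.2 to 42.1) had no EB domain, against 11.8% of 15196 such domains over all gene loci. In reverse, of the 21 EB domains of at least 500 bp, 3 (14.3%, 4.98 to 34.6), 1 at Rarb and 2 at Dhrs3, had no progenitor domain, against 6.43% of 13002. A domain enters each count through the list in which it is wide. The 9 progenitor domains lay at Rara (1), Rarb (3), Crabp1 (2), Crabp2 (2) and Dhrs3 (1), and were singled out by width after their values were seen.

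At the starts themselves, most members were open in every list. A TSS domain was listed for 9 of 9 members in EB, 8 in progenitors, 7 in no Dox, 8 with iHoxc6, 7 with iHoxc9 and 7 with iHoxc10, against 69.1%, 66.5%, 65.4%, 65.7%, 62.9% and 62.5% of all genes. The members without one were Cyp26c1 in every list after EB, Crabp1 in no Dox, and Cyp26a1 in iHoxc9 and iHoxc10. The EB count rested in part on short domains, of 39 bp at Cyp26c1 and 55 bp at Cyp26a1. With domains of at least 50 bp it was 8, and with at least 150 bp 7, while progenitors had 8 under both settings. How much of the TSS windows was covered varied more than presence did, by 42.7 percentage points across lists for Cyp26a1, 37.1 for Dhrs3, 35.7 for Cyp26b1, 31.4 for Crabp2, 27.5 for Crabp1, 18.6 for Rarg, 17.7 for Rara, 16.8 for Rarb and 1.95 for Cyp26c1.

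**Figure D4:**
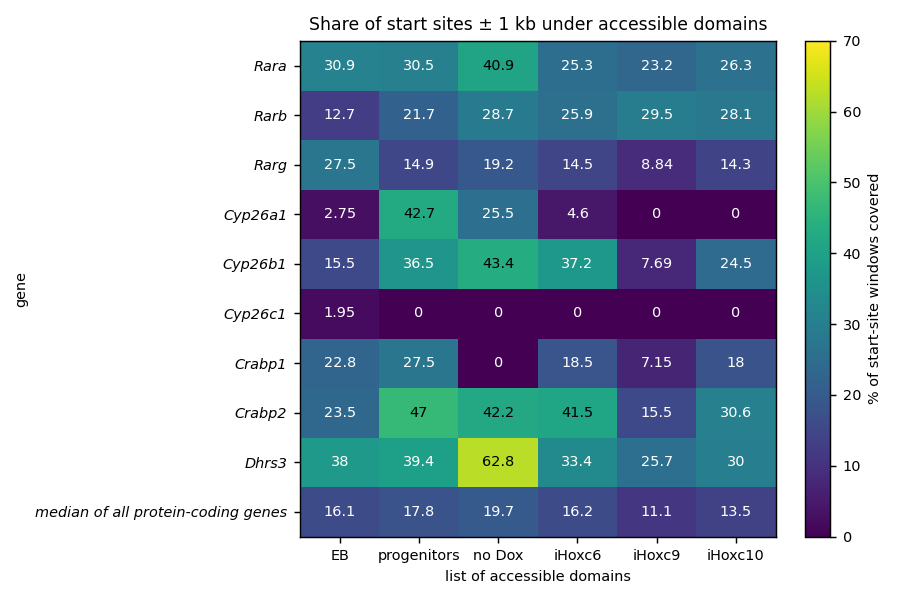
Percent of the TSS ± 1 kb windows of each gene (rows) under accessible domains in each list (columns), with the median of all protein-coding genes in the bottom row; colour runs from 0 to 70%. Cyp26a1 changes most, from 2.75% in EB to 42.7% in progenitors and 0 in iHoxc9 and iHoxc10, and Dhrs3 reaches 62.8% in no Dox.

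Among the receptors, Rara encodes RARα, the most broadly expressed of the 3 subtypes (chr11:98927818-98974942, plus strand). Its locus had 7126 bp covered in EB, 9520 bp in progenitors, 11576 bp in no Dox, 8493 bp in iHoxc6, 5195 bp in iHoxc9 and 8936 bp in iHoxc10. The change from EB to progenitors was 1.33-fold, short of the 1.5-fold limit, and that from EB to no Dox was 1.62-fold, or 1.25-fold after scaling to list totals. TSS coverage was 30.9%, 30.5%, 40.9%, 25.3%, 23.2% and 26.3% in the same order, and its starts Rara-201 and Rara-202 were open in all lists. The Rara locus total includes domains at the starts of Cdc6, Gjd3 and Top2a. These measured 455, 770 and 351 bp in EB and 549, 1093 and 766 bp in progenitors.

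Rara gained 8 regions and lost 9 from EB to progenitors, and the widest of those gained lay in an intron 8.77 kb downstream of Rara-202 (chr11:98968433-98969925). No EB domain was listed there, whereas the domain measured 1099 bp in progenitors, 1299 bp in no Dox, 1493 bp in iHoxc6, 968 bp in iHoxc9 and 1372 bp in iHoxc10. It was among the widest domains of the locus in every list but EB. No Dox to iHoxc9 was the one comparison in which Rara passed 1.5-fold down, at 0.453, or 0.759 after scaling to list totals, and in iHoxc10 the scaled fold was above 1, at 1.14.

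Rarb encodes RARβ and has an upstream and a downstream pair of starts (chr14:16430839-16819156, minus strand). Its locus had 1694 bp covered in EB, 4627 bp in progenitors, 7093 bp in no Dox, 5474 bp in iHoxc6, 4754 bp in iHoxc9 and 5244 bp in iHoxc10. The fold was 2.63 from EB to progenitors, above 98.3% of all gene loci, 4.01 from EB to no Dox and 1.52 from progenitors to no Dox. Of all 8 loci, Rarb had the largest rise from EB to no Dox, and EB was the lowest of its 6 lists.

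Part of the Rarb gain lay at the downstream start and in 3 wide regions away from it. The Rarb-201 window, which carries the DR5, had 564 bp covered in EB, 961 bp in progenitors, 1271 bp in no Dox, 1148 bp in iHoxc6, 1309 bp in iHoxc9 and 1141 bp in iHoxc10. The windows of the upstream starts, Rarb-203 and Rarb-204, had 0 bp covered in all 6 lists. Accessibility at annotated Rarb starts was thus listed at the downstream pair only, Rarb-201 and Rarb-207.

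An intronic region 1.63 kb downstream of Rarb-201 (chr14:16573459-16574375) had no EB domain, 830 bp in progenitors, 917 bp in no Dox, 235 bp in iHoxc6, 36 bp in iHoxc9 and none in iHoxc10. A second intronic region (chr14:16733061-16734601), 85.2 kb downstream of the upstream starts, had no EB domain and then 1184 bp in progenitors, 1518 bp in no Dox, 1185 bp in iHoxc6, 853 bp in iHoxc9 and 1178 bp in iHoxc10. A flanking region at −22.8 kb from the upstream starts (chr14:16841557-16842349) had no EB domain and 768 bp in progenitors, 692 bp in no Dox, 628 bp in iHoxc6, 143 bp in iHoxc9 and 597 bp in iHoxc10. The latter 2 were held by every list with RA and SAG, and the first narrowed or disappeared in the induced lists.

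Rarg encodes RARγ and went the other way (chr15:102234938-102257517, minus strand). Its locus had 6418 bp covered in EB, 5066 bp in progenitors, 5356 bp in no Dox, 4334 bp in iHoxc6, 3538 bp in iHoxc9 and 4638 bp in iHoxc10, with a fold of 0.793 from EB to progenitors. Of the receptor loci it was the only one highest in EB. From EB to progenitors it gained 4 regions and lost 14, while Rarb gained 14 and lost 5. The Rarg total includes domains at the starts of Csad, Zfp740, Mfsd5 and Espl1. The region at Csad and Zfp740 measured 1212 bp in EB and 1216 bp in iHoxc9.

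Of the 14 lost Rarg regions, 6 were at its starts and the others in its body, its flanks or at starts of other genes. The window of the upstream start Rarg-201 had 358 bp covered in EB, 23 bp in progenitors and 0 in the 4 other lists, and that of Rarg-204 had 479 bp, 69 bp and then 0. The Rarg-202 window stayed covered, with 1359 bp in EB, 1129 bp in progenitors, 1567 bp in no Dox, 1185 bp in iHoxc6, 722 bp in iHoxc9 and 1172 bp in iHoxc10. At Rarg, then, some starts lost most or all of their domains while another start was covered in all lists.

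The Cyp26 enzymes hydroxylate retinoic acid and so clear it from the cell. Cyp26a1 (chr19:37697798-37701536, plus strand) is the family member best known as induced by its own substrate. Its TSS window had 55 bp covered in EB, 854 bp in progenitors, 510 bp in no Dox, 92 bp with iHoxc6, 0 with iHoxc9 and 0 with iHoxc10. It was widest at day 2, narrower at day 4 without induction, and narrow or not listed in the 3 induced lists.

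The merged Cyp26a1/Cyp26c1 locus followed its start only in part. It had 1311 bp covered in EB, 2512 bp in progenitors, 1301 bp in no Dox, 658 bp in iHoxc6, 890 bp in iHoxc9 and 618 bp in iHoxc10. The fold was 1.85 from EB to progenitors and 0.536 from progenitors to no Dox, lower than at all but 2.73% of gene loci. From no Dox it was 0.541 with iHoxc6, 0.707 with iHoxc9 and 0.512 with iHoxc10, or 0.65, 1.18 and 0.758 after scaling.

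One flanking region ran against the rest of the Cyp26a1 locus. At 33.4 kb downstream of Cyp26a1 (chr19:37730779-37731525) the domain measured 747 bp in iHoxc9 and 443 bp in iHoxc10, 70 bp in iHoxc6 and 59 bp in no Dox, with none in EB or progenitors. This region, chosen after its values were seen, held most of the covered sequence of the locus in iHoxc9 and iHoxc10. Cyp26c1, the remaining hydroxylase (chr19:37685581-37693398, plus strand), had 39 bp covered at its start in EB and 0 in the other lists.

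Cyp26b1, the hydroxylase known for protecting limb, gonad and brain territories from retinoic acid, has an upstream and a downstream cluster of starts (chr6:84571414-84593908, minus strand). The locus had 2036 bp covered in EB, 4481 bp in progenitors, 5895 bp in no Dox, 5157 bp in iHoxc6, 1179 bp in iHoxc9 and 4351 bp in iHoxc10. The fold was 2.14 from EB to progenitors and 2.81 from EB to no Dox. From no Dox to iHoxc9 the fold was 0.213, lower than at all but 0.863% of gene loci, and 0.357 after scaling.

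The upstream start cluster of Cyp26b1 was open in part of the lists. The Cyp26b1-202 window had 0 bp covered in EB, 714 bp in progenitors, 729 bp in no Dox, 755 bp in iHoxc6, 0 in iHoxc9 and 145 bp in iHoxc10. The downstream Cyp26b1-203 window was covered in all 6, with 691 bp, 961 bp, 1131 bp, 806 bp, 385 bp and 872 bp. Among the 3 induced lists, iHoxc6 was close to no Dox at the upstream start, iHoxc10 had a short domain and iHoxc9 none.

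A region downstream of Cyp26b1 was widest in iHoxc10, and a far upstream one was wide in progenitors and all day 4 lists. Just past the 3′ end of the gene (chr6:84569814-84571097) the domain measured 1196 bp in iHoxc10, against 364 bp in iHoxc6, 248 bp in no Dox, 124 bp in progenitors and none in EB or iHoxc9. At −47.1 kb from the upstream start (chr6:84640428-84641600) it measured 26 bp in EB, 773 bp in progenitors, 1096 bp in no Dox, 821 bp in iHoxc6, 553 bp in iHoxc9 and 1041 bp in iHoxc10. Both regions were chosen after their values were seen.

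**Figure D5:**
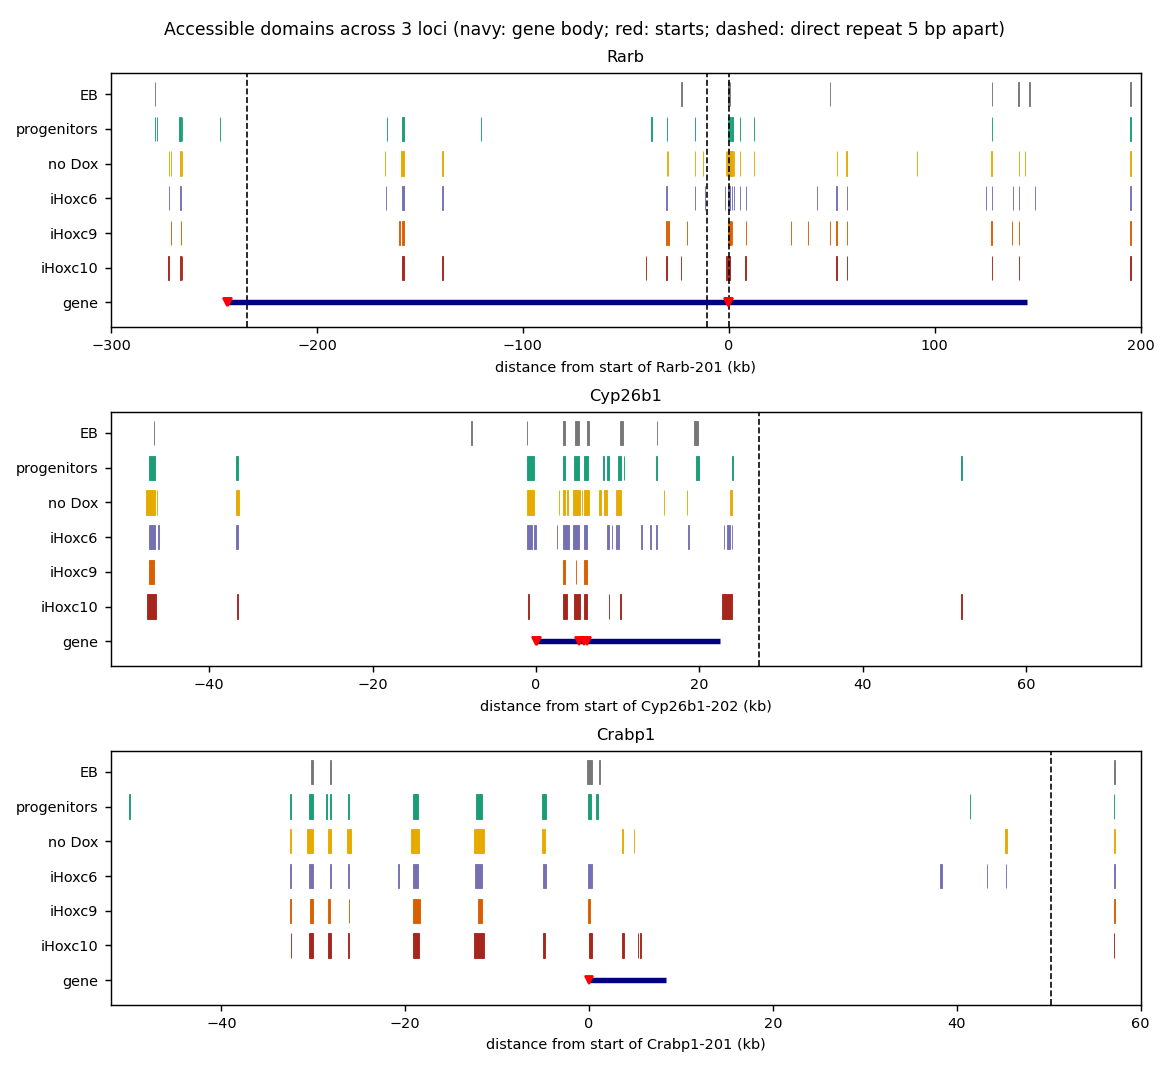
Accessible domains (coloured bars, 1 row per list) across the Rarb, Cyp26b1 and Crabp1 loci, by distance from the named start in kb along the gene's strand; the navy bar is the gene body, red triangles are starts and dashed lines DR5 matches. EB has no domain where progenitors have an intronic Rarb domain of 1184 bp and upstream Crabp1 domains of 598 and 697 bp. Within 1 kb of the Cyp26b1-202 start, EB and iHoxc9 have no domain and iHoxc10 has 145 bp covered.

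Crabp1 encodes a cytoplasmic binding protein that limits free retinoic acid (chr9:54764748-54773110, plus strand). Its locus had 1062 bp covered in EB, 3207 bp in progenitors, 4093 bp in no Dox, 3201 bp in iHoxc6, 2110 bp in iHoxc9 and 3569 bp in iHoxc10. The fold of 2.85 from EB to progenitors was the highest of the 8 loci and above 98.6% of all gene loci. EB was the lowest of the 6 lists. The locus total includes a domain at the start of Wdr61, of 251 bp in EB and 463 bp in progenitors.

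The start of Crabp1 did not carry this gain. The TSS window had 457 bp covered in EB, 551 bp in progenitors, 0 in no Dox, 370 bp in iHoxc6, 143 bp in iHoxc9 and 361 bp in iHoxc10. It was thus unlisted in the list that covered most of the locus. Wide regions gained lay in the upstream flank: at −18.9 kb (chr9:54745378-54746361) there was no EB domain and 598 bp in progenitors, 835 bp in no Dox, 614 bp in iHoxc6, 803 bp in iHoxc9 and 697 bp in iHoxc10.

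At −11.9 kb from the Crabp1 start (chr9:54752256-54753339) there was again no EB domain, and 697 bp in progenitors, 1067 bp in no Dox, 759 bp in iHoxc6, 364 bp in iHoxc9 and 1063 bp in iHoxc10. With the DR1 region at −4.93 kb, this made 3 upstream regions of over 400 bp that progenitors held and EB did not. The middle of the DR1 region is shown because it is the only one of them with a searched repeat, whose hexamers are in capitals as their reverse complement (chr9:54759748-54759897, plus strand).
Crabp1 upstream region: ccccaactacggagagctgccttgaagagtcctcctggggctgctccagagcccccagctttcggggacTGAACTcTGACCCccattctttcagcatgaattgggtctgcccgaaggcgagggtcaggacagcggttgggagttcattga

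Crabp2 encodes the binding protein that carries retinoic acid to the receptors in the nucleus (chr3:87948666-87953376, plus strand). Its locus had 7241 bp covered in EB, 11584 bp in progenitors, 10674 bp in no Dox, 9466 bp in iHoxc6, 4970 bp in iHoxc9 and 7807 bp in iHoxc10. The fold was 1.59 from EB to progenitors, or 1.43 after scaling to list totals, which is under the 1.5-fold limit. TSS coverage was 23.5% in EB and 47% in progenitors, and 42.2%, 41.5%, 15.5% and 30.6% in no Dox, iHoxc6, iHoxc9 and iHoxc10.

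The Crabp2 window also holds the start of Nes, which encodes the neural progenitor filament nestin, 22.2 kb downstream. That region (chr3:87970278-87971547) measured 456 bp in EB, 1047 bp in progenitors and 921 bp in no Dox. It measured 864 bp in iHoxc6, 162 bp in iHoxc9 and 426 bp in iHoxc10. Domains at the starts of Hdgf, Mrpl24, Isg20l2, Rrnad1 and Bcan also lay in this locus, so part of its total belongs to neighbours. The Hdgf region alone measured 952 bp in EB and 1246 bp in progenitors. Regions with no EB domain lay at 10.6 kb (631 bp in progenitors) and 34.6 kb (578 bp in progenitors) downstream of Crabp2. The first was in no iHoxc9 domain, and the second was 155 bp there.

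Dhrs3 encodes a reductase that turns retinaldehyde back into retinol and so lowers retinoic acid synthesis (chr4:144892827-144928209, plus strand). Its locus had 3352 bp covered in EB, 3279 bp in progenitors, 4799 bp in no Dox, 2530 bp in iHoxc6, 1634 bp in iHoxc9 and 1507 bp in iHoxc10. From EB to progenitors the fold was 0.979, with 6 regions gained and 4 lost. From no Dox the folds were 0.537 with iHoxc6, 0.354 with iHoxc9 and 0.328 with iHoxc10, below all but 3.15%, 5.21% and 2.36% of gene loci.

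Part of the Dhrs3 difference among day 4 lists was near its starts. TSS coverage was 38% in EB, 39.4% in progenitors, 62.8% in no Dox, 33.4% with iHoxc6, 25.7% with iHoxc9 and 30% with iHoxc10, and no Dox was apart from all others. An intronic region 1.33 kb downstream of a start (chr4:144893857-144895070) measured 622 bp in EB, 571 bp in progenitors, 1192 bp in no Dox, 356 bp in iHoxc6, 0 in iHoxc9 and 89 bp in iHoxc10. At 56.8 kb downstream (chr4:144949483-144950453), Dhrs3 had the last of the wide regions without an EB domain, of 732 bp in progenitors, 971 bp in no Dox, 580 bp in iHoxc6, 383 bp in iHoxc9 and 296 bp in iHoxc10. The DR5 match 5.24 kb downstream of a Dhrs3 start was outside the domains of all 6 lists.

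Genes whose TSS coverage followed that of a member most closely over the 6 lists were named by the smallest mean absolute difference. For Cyp26a1 these were Mlc1 at 3.46 percentage points, Disc1 at 4.06 and Cpn1 at 4.35. For Dhrs3 they were Suclg1 at 2.27, Kazald1 at 2.71 and Tubb3, the neuronal β-tubulin, at 2.79. For Cyp26b1 they were Bahcc1 at 3.06, E2f2 at 3.5 and Sh3bgrl at 3.85. With 6 lists and 21911 genes some close matches are found for most patterns.

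Another 23 genes of the pathway, covering synthesis, uptake and binding, receptor partners, corepressors and targets, were examined alongside. A TSS domain was listed for 22 of them in EB, 22 in progenitors, 21 in no Dox, 20 with iHoxc6, 20 with iHoxc9 and 19 with iHoxc10, beside 69.1%, 66.5%, 65.4%, 65.7%, 62.9% and 62.5% of all genes. From EB to progenitors, 0 starts were gained or lost, while 9 loci had at least 1.5-fold more covered bp and 1 had at least 1.5-fold less, against the 11.7% and 12.7% of all loci above, with a median fold of 1.32. From no Dox, 3 of 23 loci with iHoxc6, 22 with iHoxc9 and 7 with iHoxc10 were past 1.5-fold down and 0 were up, against 12%, 55.9% and 36.3% of all gene loci down.

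Several of these loci are named after their values were seen. Aldh1a1, a retinaldehyde dehydrogenase that makes retinoic acid, had 205 bp covered in EB and 2382 bp in progenitors, 8.14-fold more, while its TSS coverage was 3.14% and 3.04%. The related Aldh1a2 and Aldh1a3 went the other way, from 1896 bp to 1753 bp and from 2023 bp to 1578 bp. Among the targets, Meis2, a cofactor of Hox proteins, went from 6164 bp to 11792 bp. Fabp5, a fatty acid binding protein that also binds retinoic acid, went from 21.2% to 68.5% TSS coverage, and Rxra, a dimer partner of the RARs, from 12.9% to 26.1%. Of the other partners, Rxrb rose from 40.3% to 64% and Rxrg fell from 15.2% to 13.3%. The single locus past 1.5-fold down was Lrat, which stores retinol as esters, from 1932 bp to 977 bp.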

How the data were processed

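ATAC-seq was performed on 12 mouse samples, 2 per group. Per the labels and the study's methods, the reads were aligned to mm10 with Bowtie2 2.2.2 and handled with Picard 2.8.2 (versions from the submitters' processing notes), and the authors deposited 1 list of accessible domains per group, made from both samples; the calling settings are not given in the sources used here. Only the domain coordinates were used. The no Dox list has 1 value throughout in each of its further columns, and where its name and its label differ in the day, the label was followed. Depth is unknown, so no interval for it can be given.

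Domains were set against GENCODE M21 (GRCm38) with Python 3.11.15 and NumPy 2.4.6. A TSS was the start of any protein-coding transcript. Regions joined domains of the 6 lists that overlapped by at least 1 bp. Folds added 100 bp to both values. Wilson 95% intervals cover the counting of regions or domains only. Overlap and coverage code was tested on simulated data, where 0 of 600 checks differed. With 1 list per group there is no replicate error, and no test across groups was made. All members were named; for the 3 with the widest range of TSS coverage, the 3 genes nearest in that coverage were named, pathway genes were named where their start was gained or lost from EB to progenitors (none was), and genes named outside these rules are marked. The members and gene lists were chosen with earlier results of these data known. Alternatives changed domain width, list length, windows, overlap, fold limit, scaling and repeat spacing.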

Additional observations from a re-analysis of the deposited data

How the results depend on the processing

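The 48 counts and sums reported for the lists were recomputed under alternatives, giving 210 values, of which 144 stayed within 1.5 times the reported one and 66 moved further; the cause was not tested. Wider TSS windows, 100 kb flanks, a stricter overlap and matches within 100 bp of a domain moved none. No paired analysis was possible because each list was made from both replicates, and for the same reason no replicate could be left out. Depth is unknown, so a domain missing from a list cannot be told apart from one that was too weakly sequenced to be called.

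With domains of at least 50 bp, iHoxc6 had 92 domains in the loci; regions lost were 27 from EB to progenitors and 33 from EB to no Dox, regions gained and lost were 32 and 27 from progenitors to no Dox, 18 and 29 to iHoxc6 and 10 and 34 to iHoxc10, and those gained to iHoxc9 were 5. With domains of at least 150 bp, the loci held 54 domains in EB, 75 in progenitors, 78 in no Dox, 66 in iHoxc6 and 47 in iHoxc9. Regions gained and lost were then 37 and 16 from EB to progenitors, 42 and 20 from EB to no Dox, 20 and 19 from progenitors to no Dox, 10 and 21 to iHoxc6, 5 and 35 to iHoxc9, and 9 and 23 to iHoxc10, and 0 loci rose 1.5-fold from progenitors to no Dox. With the widest domains in lists of equal length, the loci held 70 domains in EB and 89 in iHoxc6. Regions lost were 23 from EB to progenitors, gained and lost were 49 and 30 from EB to no Dox, 22 and 26 from progenitors to no Dox and 18 and 20 to iHoxc6, lost were 35 to iHoxc9, and gained and lost were 23 and 20 to iHoxc10. The excess of losses to iHoxc10 thus turned over, in a setting that cuts no Dox but keeps iHoxc10 whole. The excess of gains to iHoxc6 turned under all 3 of these settings.

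With 20 kb flanks, 15653 bp were covered in iHoxc9. With the 5′ end of the gene model as the only start, 4 members had a TSS domain in no Dox, 3 in iHoxc9 and 4 in iHoxc10, with no share of all genes given for this setting. At a 2-fold limit, 3 loci rose from EB to progenitors, 0 rose and 0 fell from progenitors to no Dox, 0 fell to iHoxc6 and 1 to iHoxc10. After scaling to list totals, 1 fell from EB to no Dox, 0 rose from progenitors to no Dox, 2 fell to iHoxc9 and 1 to iHoxc10. Matches inside domains were 0 in all 6 lists for DR2, and for DR1 0 in EB and iHoxc9 and 1 in each of progenitors, no Dox, iHoxc6 and iHoxc10. With progenitors in place of no Dox, an alternative chosen after seeing the data, 20 regions were gained to iHoxc9 and 1 locus fell to iHoxc6.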
